A study of Mus musculus with 6 samples.

Results

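The elastic fibre genes considered here are 10 genes that encode the elastin core, its microfibrils, the fibulins that join them and the enzymes that crosslink them: Eln, Fbn1, Fbln1, Fbln2, Fbln5, Efemp1, Efemp2, Lox, Loxl1 and Mfap4. The members were taken by gene symbol, as every probe set to which the array's platform annotation gives one of these symbols. The annotation named 16 probe sets for 8 of the 10 genes, out of 18193 genes named on the array. Fbn1 and Efemp2 had no entry in that annotation and were not analysed here. The series holds 6 oligonucleotide arrays of whole aorta from mice aged 32 weeks. On 3 of them the mice were wild-type C57BL/6J, and on the other 3 they were apoE-/- on the C57BL/6J background, that is, without apolipoprotein E in any tissue. Mice of this genotype develop high plasma cholesterol and atherosclerotic plaques. The labels name no treatment, diet or sex. Nothing says that replicates were separate animals, and every p-value then covers the spread of these arrays alone, part of which may be technical.

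Elastic fibres give the aortic wall its recoil. Tropoelastin, the product of Eln, is secreted by smooth muscle cells and laid down on a scaffold of fibrillin microfibrils, where fibulins guide its assembly and lysyl oxidases join the chains by covalent crosslinks. Most elastin is made around birth and turns over very slowly, and breaks in the elastic lamellae are a known feature of advanced plaques in this mouse strain.

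The values are probe set intensities on a linear scale, already brought to one common level by the authors. Array medians lay between 178 and 195.5 units, and arrays of one genotype correlated at r = 0.965 to 0.974 against 0.932 to 0.965 between genotypes. Apoe itself, read as a check of the labels, gave 4309 to 5686 units on the wild-type arrays and 56.3 to 462.1 units on the apoE-/- arrays. On the first principal component, which held 46.0% of the variance, the apoE-/- replicate 2 array lay at 12.7, between the wild-type arrays at -34.6 to -25.7 and the other apoE-/- arrays at 34.5 and 45.1. Smooth muscle markers, which define the main cell type of the aortic media, were bright on all arrays, with Acta2 (smooth muscle actin) between 12506 and 16385 units.

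Most of the elastic fibre genes were not called different between the genotypes, and they were not tested as a group. Of 8 genes tested, 1 rose in apoE-/- aorta, Efemp1, and none fell (limma adjusted p under 0.05 over all 13031 genes tested). The background was 3.15% of all genes called higher and 0.483% called lower, and limma gave 3 of the 8 an unadjusted p under 0.05, against 18.4% of all genes tested. The median log2 change of the 8 genes was 0.06, against -0.05 over all genes tested, with 4 above and 4 below 0 (5 and 3 with median centring, where the Eln change of -0.01 turned to 0.014). The groups did not overlap for 3 of the 8 genes, Efemp1, Fbln2 and Fbln5, all higher in apoE-/-, against 24.6% of all genes tested. Log2 changes here are on the log2(intensity + 16) scale.

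**Figure D1:**
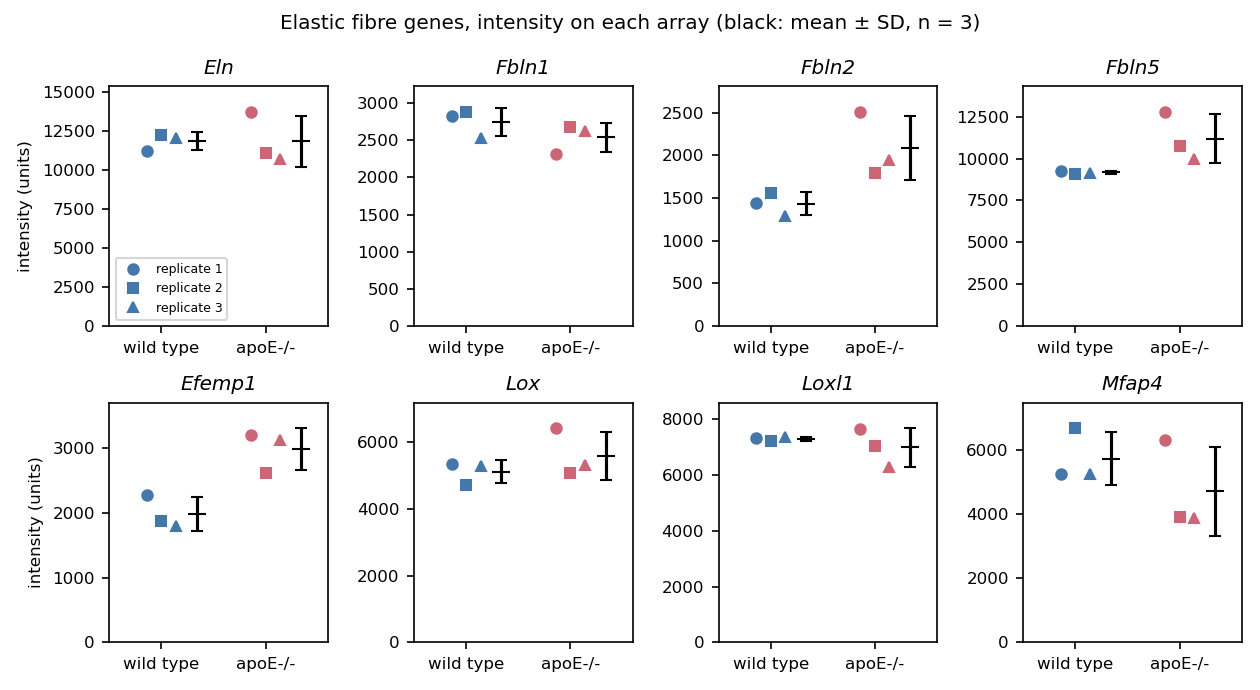
Intensity in units (linear axis from 0) of the probe set that represents each of 8 elastic fibre genes on each array; symbols mark the replicate number, and black marks give the mean ± SD (n = 3). The groups are apart for Efemp1, Fbln2 and Fbln5, and the Eln groups, with means of 11860 and 11830 units, overlap.

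Elastin itself showed no difference that these arrays could resolve. Its brighter probe set read 11235, 12267 and 12069 units on wild-type replicates 1 to 3 and 13732, 11060 and 10694 units on apoE-/- replicates 1 to 3. The apoE-/- arrays held both the highest and the lowest of the 6 values. Means were 11860 ± 548 and 11830 ± 1659 units (SD, n = 3), and the log2 change was -0.01 ± 0.11 (SE, adjusted p = 0.97 in limma). The 95% interval, which is not adjusted for the number of genes, ran from 0.832 to 1.18 times the wild-type level. A loss or gain larger than that is outside it, and a smaller one is not excluded by 3 arrays against 3. The interval is not a limit of what the adjusted test could call.

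A further Eln probe set read 4311, 3869 and 4051 units in wild type and 4092, 5170 and 3899 units in apoE-/-. Its log2 change of 0.10 had an interval of -0.17 to 0.36 (adjusted p = 0.74 over all 27023 probe sets tested). The highest array of the 6 was apoE-/- replicate 1 for the brighter probe set and apoE-/- replicate 2 for the dimmer one, so the order of the apoE-/- arrays was not shared between the elastin probe sets. The tested non-member genes whose centred profile over the 6 arrays lay closest to that of the brighter Eln probe set were Gnas, Cpe and Rps2, at Euclidean distances of 0.049, 0.054 and 0.061 in log2 units. Gnas encodes a G protein subunit, Cpe a peptide-processing enzyme and Rps2 a ribosomal protein. All were bright, and their log2 changes lay between 0.0079 and 0.025.

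The fibulins are calcium-binding glycoproteins that bridge tropoelastin, microfibrils and basement membranes. Efemp1 (fibulin 3) was the member that rose. Its 1 probe set read 2276, 1882 and 1792 units in wild type and 3210, 2622 and 3132 units in apoE-/-. Every apoE-/- array was above every wild-type array, and the lowest apoE-/- value, on replicate 2, was 1.15 times the highest wild-type one. Means were 1983 ± 258 and 2988 ± 320 units (SD, n = 3). The log2 change was 0.59 ± 0.12 (SE, adjusted p = 0.036 in limma), which is 1.51 times the wild-type level with a 95% interval of 1.24 to 1.82. In the fit of every probe set the adjusted p was 0.042, and Efemp1 was 1 of 15 member probe sets called, against 2.44% of all probe sets called higher. The call was not kept in every omission of a single array. The adjusted p was 0.092 or 0.128 when wild type replicate 2 or 3 was left out and 0.143 or 0.147 when apoE-/- replicate 1 or 3 was, while the log2 change stayed between 0.52 and 0.69 over all 6 omissions. It was also above the threshold with median centring (0.054), with no filter (0.055) and with no intensity trend (0.085).

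Fbln2, a fibulin of vessel walls and basement membranes, had a change of similar size that did not pass the test. Its bright probe set read 1445, 1562 and 1293 units in wild type and 2512, 1795 and 1945 units in apoE-/-, again without overlap. The log2 change was 0.52 ± 0.14 (SE, limma adjusted p = 0.085), or 1.44 times the wild-type level with an interval of 1.16 to 1.79. The apoE-/- replicate 1 array was well above the other 5, and without it the log2 change was 0.38 (adjusted p = 0.21). Without apoE-/- replicate 2, the array nearest to wild type, it was 0.62 and passed the test (adjusted p = 0.048). The other Fbln2 probe set lay between 2.3 and 43.6 units, fell under the filter on low values and was not tested.

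Fbln5, which binds tropoelastin and lysyl oxidase-like 1 and is needed for elastic fibre assembly in mice, did not pass the test. Its bright probe set read 9278, 9106 and 9133 units in wild type, a spread of only 92.4 units (SD, n = 3), and 12801, 10757 and 9999 units in apoE-/-. The groups did not overlap, but the apoE-/- arrays were spread widely. The log2 change was 0.28 ± 0.10 (SE, limma adjusted p = 0.21, 95% interval 0.041 to 0.52). A dim Fbln5 probe set, at 178 to 264 units, had a log2 change of 0.025 with an interval of -0.41 to 0.46, too wide to set against the bright one, and the median of both gave the gene a log2 change of 0.15.

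Fbln1, the remaining fibulin with named probe sets, leaned the other way on all of them without passing the test. The brightest read 2826, 2884 and 2529 units in wild type and 2317, 2676 and 2624 units in apoE-/-, and the log2 change was -0.11 ± 0.10 (SE, adjusted p = 0.58 in limma, 95% interval -0.33 to 0.11). The next read 2370, 2318 and 2077 units in wild type and 1333, 2112 and 2209 units in apoE-/-, where replicate 1 alone was far below the rest; its log2 change was -0.29 (adjusted p = 0.47) and -0.06 without that array. The third, at 362 to 481 units, had a log2 change of -0.08. The apoE-/- replicate 1 array thus gave Fbln1 its lowest value on the 2 brighter probe sets and gave Fbln2, Fbln5 and Efemp1 their highest.

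**Figure D2:**
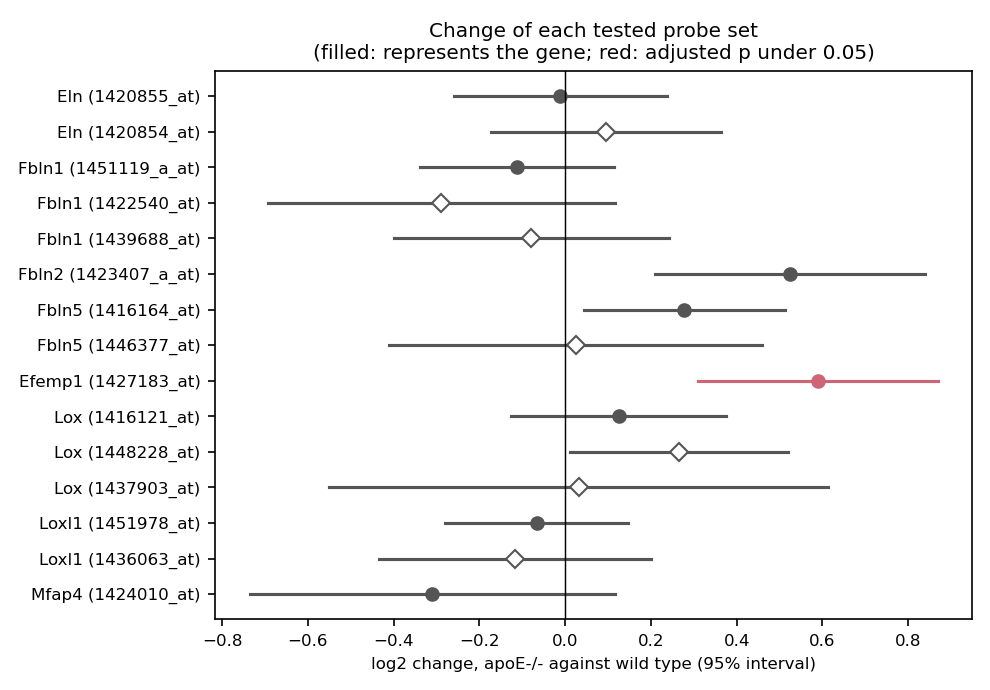
Log2 change (apoE-/- against wild type, log2(intensity + 16) scale) with its 95% interval for the 15 member probe sets that passed the filter, from the fit of every probe set; filled circles represent the gene and open diamonds are its further probe sets. The interval of Efemp1, in red, lies highest, and the 3 Fbln1 probe sets all lie below 0.

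Start site windows were read for the 3 fibulins whose groups did not overlap, to show what lies upstream of the genes that lay highest. Of the 10 members, 6 had a window in the RefSeq promoter table of build GRCm38.p6. The 250 bases before the start are given 5′ to 3′ on the gene's strand, with motif matches in capitals. The motifs searched, on both strands, were the AP-1 motif TGANTCA, the GC box GGGCGG, the TATA box TATAAA and the CCAAT box CCAAT. These are chr11:28852955-28853204 (plus strand) for Efemp1, chr6:91212514-91212763 (plus strand) for Fbln2 and chr12:101819120-101819369 (minus strand) for Fbln5, for which the table has a further window.
Efemp1: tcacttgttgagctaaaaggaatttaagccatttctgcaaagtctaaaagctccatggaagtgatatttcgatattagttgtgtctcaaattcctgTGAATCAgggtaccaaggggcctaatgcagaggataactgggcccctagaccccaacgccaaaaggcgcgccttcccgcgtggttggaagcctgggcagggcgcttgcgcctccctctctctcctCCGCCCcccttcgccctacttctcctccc
Fbln2: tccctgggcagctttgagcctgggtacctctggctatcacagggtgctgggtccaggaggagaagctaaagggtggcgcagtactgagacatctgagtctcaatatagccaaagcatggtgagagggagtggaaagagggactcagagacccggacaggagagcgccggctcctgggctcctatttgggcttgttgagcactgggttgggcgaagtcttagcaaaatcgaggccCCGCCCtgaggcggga
Fbln5: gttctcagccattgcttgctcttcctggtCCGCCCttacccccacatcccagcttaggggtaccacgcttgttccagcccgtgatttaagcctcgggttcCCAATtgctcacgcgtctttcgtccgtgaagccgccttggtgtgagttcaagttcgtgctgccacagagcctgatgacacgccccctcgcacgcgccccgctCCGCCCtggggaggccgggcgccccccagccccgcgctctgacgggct

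The Efemp1 window held 1 AP-1 motif, 154 bases before the start, which 6.75% of the 32851 windows of the same length in the table also hold at least once. It held 1 GC box, as did the Fbln2 window, and the printed Fbln5 window held 2; 32.7% of all windows hold one. The Fbln5 window also had 1 CCAAT box, present in 33.8% of all windows, and none of the 3 had a TATA box, present in 12.4%. None of the matches in these windows overlapped another. Of the other member windows (Fbn1, Fbln1, Efemp2 and the further Fbln5 window), none had an AP-1 motif. A match describes the letters of the window and is not a binding site.

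The crosslinking enzymes, which oxidise lysines of tropoelastin and collagen, held no gene that passed the test. Lox, lysyl oxidase, read 5331, 4701 and 5274 units in wild type and 6406, 5062 and 5293 units in apoE-/- on its brightest probe set, with overlapping groups. The log2 change was 0.13 ± 0.11 (SE, limma adjusted p = 0.59, 95% interval -0.12 to 0.38). A further Lox probe set read 3747, 3119 and 3957 units in wild type and 4686, 4065 and 4229 units in apoE-/-. These groups did not overlap, and the log2 change of 0.27 ± 0.11 (SE) did not pass over all probe sets (limma adjusted p = 0.29). A dim Lox probe set, at 115 to 217 units, had a log2 change of 0.032 with a wide interval of -0.55 to 0.61.

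Loxl1, the lysyl oxidase that maintains elastin in adult tissue, read 7310, 7210 and 7353 units in wild type and 7652, 7033 and 6276 units in apoE-/-. The wild-type arrays had an SD of 73.2 units (n = 3) and lay inside the range of the apoE-/- arrays. The log2 change was -0.07 ± 0.09 (SE, limma adjusted p = 0.75), with a 95% interval of 0.824 to 1.11 times the wild-type level. Its dimmer probe set, at 547 to 757 units, had a log2 change of -0.12 (adjusted p = 0.73), with apoE-/- replicate 3 lowest on both.

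Mfap4, a microfibril-associated glycoprotein that binds elastin and collagen, had the lowest change of the members. It read 5240, 6680 and 5261 units in wild type and 6323, 3925 and 3887 units in apoE-/-. Replicates 2 and 3 of apoE-/- lay below all wild-type arrays, whereas replicate 1 was higher than 2 of the 3 wild-type arrays, so the groups overlapped. In log2 the change was -0.31 ± 0.19 (SE, limma adjusted p = 0.44, 95% interval -0.74 to 0.12), and it was -0.54 without apoE-/- replicate 1 (adjusted p = 0.11).

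The apoE-/- replicate 1 array read highest of all 6 for 6 of the 8 genes. Over the 10% of tested genes with the highest mean, which held 5 of the 8 members, its median deviation from the gene's mean was 0.065 in log2, against 0.050 on wild type replicate 2 and -0.085 on apoE-/- replicate 3. Over the next 10%, which held the other 3 members, it was -0.006. After quantile normalization, 3 of the 8 genes were highest on that array, Eln read 12058 units there against 11391 to 12408 units in wild type, and the log2 changes of Efemp1, Fbln2 and Fbln5 were 0.58, 0.52 and 0.24. That array was also highest for 6 of the 11 adventitial fibroblast markers and for 3 of the 10 macrophage markers, the other 7 of which were highest on apoE-/- replicate 3, and the part of these markers in the member values was not tested.

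The tested non-member genes closest to Efemp1 in centred profile were Adgrg6, an adhesion receptor, D17H6S56E-5, and Tlr3, a receptor for double-stranded RNA, at distances of 0.12, 0.14 and 0.17 over the 6 arrays. Their log2 changes of 0.58, 0.58 and 0.55 were of the size of the Efemp1 change, and with adjusted p-values of 0.15, 0.044 and 0.10 only D17H6S56E-5 passed the limma test.

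Other genes of microfibrils and elastic fibres were read from the same fit. Of 16 listed, 13 were tested and 3 (Fbn2, Emilin3 and Hmcn1) fell under the filter. Of the 13, 1 rose and none fell, and the list median was -0.08 in log2, with 7 of 13 below 0. An unadjusted limma p under 0.05 was found for 7 of the 13 (18.4% of all genes tested), and the groups did not overlap for 5 of the 13 (24.6% of all genes tested). The one that rose was Ltbp2, a latent TGF-beta binding protein that resides on microfibrils and also binds Fbln5. It read 1547, 1749 and 1759 units in wild type and 4944, 3178 and 3643 units in apoE-/-, with the lowest apoE-/- array at 1.81 times the highest wild-type one. In log2 the change was 1.19 ± 0.15 (SE, limma adjusted p = 0.0052), 2.28 times the wild-type level with an interval of 1.79 to 2.91. It stayed between 1.01 and 1.33 and passed the test without any single array.

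The uncalled members of that list spanned log2 changes of -0.50 to 1.42, and those named here were chosen after their values were seen. Thsd4, which binds fibrillin, read 2816, 2600 and 2994 units in wild type and 1869, 2362 and 1735 units in apoE-/-, without overlap (log2 change -0.50, limma adjusted p = 0.071). Mfap2, a small glycoprotein of microfibrils, had a log2 change of 0.41 (limma adjusted p = 0.061). Adamtsl2, a secreted protein that binds microfibrils, had the highest change, 1.42 (limma adjusted p = 0.14), but its wild-type arrays read 443, 113 and 121 units, and without wild type replicate 1 the change was 2.02 and passed (adjusted p = 0.0061). The other latent TGF-beta binding proteins tested, Ltbp1, Ltbp3 and Ltbp4, had log2 changes of -0.09, -0.14 and -0.08. The sign was not kept in every setting: Ltbp3 was at 0.074 as the median of its probe sets and at 0.024 without apoE-/- replicate 3. Ltbp4 was at 0.054 without wild type replicate 1.

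Of 6 further genes of the lysyl oxidase pathway, 4 were tested. Loxl2 had no named probe set, and Tll1 fell under the filter. None of the 4 passed, with 1 of them at an unadjusted p under 0.05 in limma (18.4% of all genes tested). Atp7a, the copper transporter that supplies lysyl oxidases, had the smallest p (835.5 to 999.6 units in wild type, 1081 to 1340 units in apoE-/-, log2 change 0.35, limma adjusted p = 0.17). The enzymes Loxl3 and Loxl4 and the protease Bmp1, which activates pro-lysyl oxidase, had log2 changes of 0.08 to 0.20.

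Several enzymes that degrade elastin rose. Of 9 listed, 7 were tested (Elane and Prtn3 were under the filter). Mmp12 passed that filter through its apoE-/- arrays alone. Of the other 6, 3 rose and none fell, against 3.15% of all genes tested called higher and 0.483% called lower. The median log2 change of these 6 was 0.66, against -0.05 over all genes tested. Earlier results of these data already showed such rises, so they are not independent evidence. Mmp12, macrophage elastase, read 14.2 to 64.8 units in wild type and 3393 to 7585 units in apoE-/-, with the lowest apoE-/- array at 52.4 times the highest wild-type one. Its wild-type values lie under the level that the filter asked of a mean over all arrays, 119.1 units, so the size of its change is not known: the fitted log2 change was 5.84, 6.88 or 7.53 with a log offset of 64, 16 or 1. The cysteine cathepsins, which also cleave elastin, rose on a smaller scale. Ctss read 1855 to 2012 units in wild type against 8763 to 12861 units, Ctsk 834 to 979 against 1467 to 3498 units, and Ctsl 6424 to 7420 against 10246 to 13502 units, with limma adjusted p-values of 1.11e-04, 0.032 and 0.014. Ctsk was called without apoE-/- replicate 2 and in no other omission of a single array, and without wild type replicate 3 only Mmp12 and Ctss were called. With all arrays kept, Ctsk was not called with no filter (limma adjusted p = 0.055) or with no intensity trend (0.067). The gelatinases Mmp2 and Mmp9 had log2 changes of 0.60 (limma adjusted p = 0.071) and -0.09. Mmp2 was called with quantile normalization (limma adjusted p = 0.039), with array weights (0.035) and without apoE-/- replicate 2 (0.014), and in no other setting. Whether the enzymes and the elastic fibre genes differed in change was not tested.

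**Figure D3:**
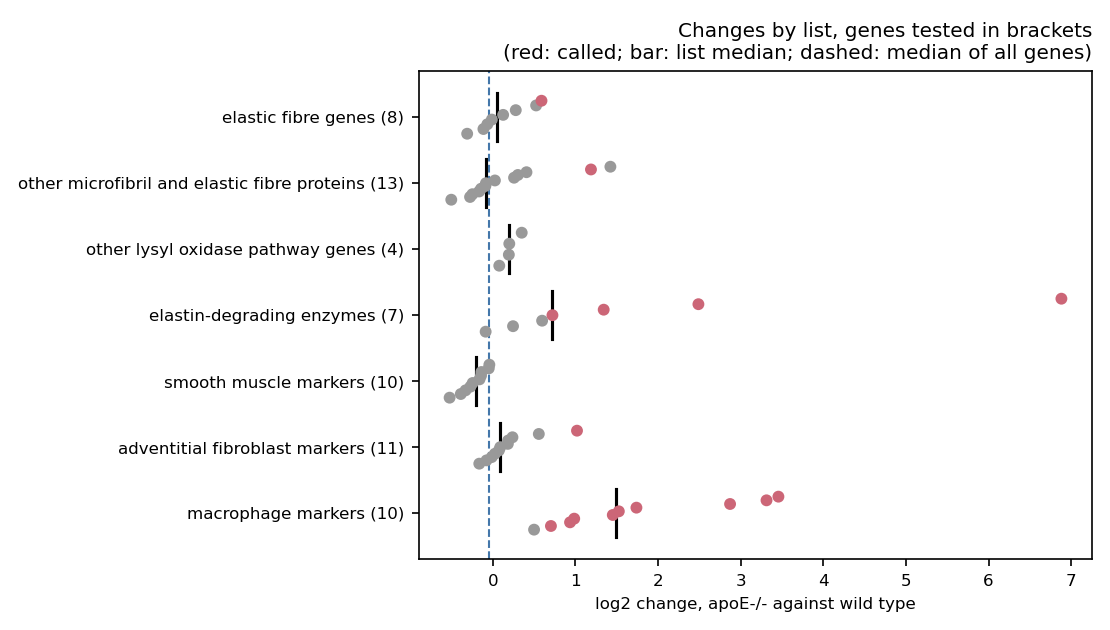
Log2 change (apoE-/- against wild type) of each tested gene in 7 lists, with the number of genes in brackets; red points were called, bars are list medians and the dashed line is the median of all genes tested, -0.05. The elastic fibre genes lie between -0.31 and 0.59 around a median of 0.06. The highest point among the elastin-degrading enzymes is Mmp12, whose wild-type values were low. Its position ran from 5.84 to 7.53 with other log offsets, and the bar of that list, at 0.72, includes it.

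Several cell types of the wall make elastic fibre proteins, and in bulk tissue fewer cells of a type and less RNA per cell cannot be told apart. Of 10 smooth muscle markers, none was called and all 10 were below 0 (also after quantile normalization and median centring). Over all 13031 genes tested, 7675 were below 0. An unadjusted limma p under 0.05 was found for 4 of the 10 markers, against 18.4% of all genes tested. Their summed intensity was 77973 to 88483 units in wild type and 68292 to 81227 units in apoE-/-. Of 11 adventitial fibroblast markers tested, 1 rose, Lum, a keratan sulfate proteoglycan, from 5082 ± 305 to 10440 ± 2053 units (SD, n = 3). The median log2 change of the 11 was 0.09, with 3 below 0 (2 with median centring). Of the 11, 2 had an unadjusted limma p under 0.05 (18.4% of all genes tested). The summed intensity, which includes Lum, was 75152 to 78430 units in wild type against 82764 to 102330 units in apoE-/-, highest on apoE-/- replicate 1. The 8 members themselves summed to 44705 to 46292 units in wild type and 43849 to 54954 units in apoE-/-, with only apoE-/- replicate 1 above the wild-type range.

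Of 10 macrophage markers, 9 rose, and their sum was 14682 to 15843 units in wild type and 33088 to 48537 units in apoE-/-, lowest on replicate 2. The sum was highest on replicate 1, as were Csf1r, Lgals3 and Lyz2, while the other 7 markers were highest on replicate 3. Of 8 endothelial markers, 1 rose, Emcn, and all 8 were above 0 (also after quantile normalization and median centring). An unadjusted limma p under 0.05 was found for 3 of the 8 (18.4% of all genes tested). The endothelial sum was 9406 to 13068 units in wild type against 12948 to 15245 units in apoE-/-. None of 6 adipocyte markers was called and all 6 were below 0, with 1 at an unadjusted p under 0.05 in limma (18.4% of all genes tested). Their sums were 31346 to 52854 units in wild type and 28598 to 40219 units in apoE-/-, with only wild type replicate 2 above the apoE-/- range. Of 5 skeletal muscle markers tested, 3 (Acta1, Mylpf and Tnni2) had an apoE-/- mean log2 value under the level of the filter. All 3 were highest on wild type replicate 3, and Tnni2 read only 65.9 and 37.8 units on wild type replicates 1 and 2. The other 2 (Ckm and Casq1) fell. Wild type replicate 3 summed to 14003 units over the 5 markers, against 1391 to 2805 units on the other arrays. No marker tested read 0 on any array, and the part of these cell types in the changes of Efemp1, Fbln2 and Ltbp2 was not tested.

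**Figure D4:**
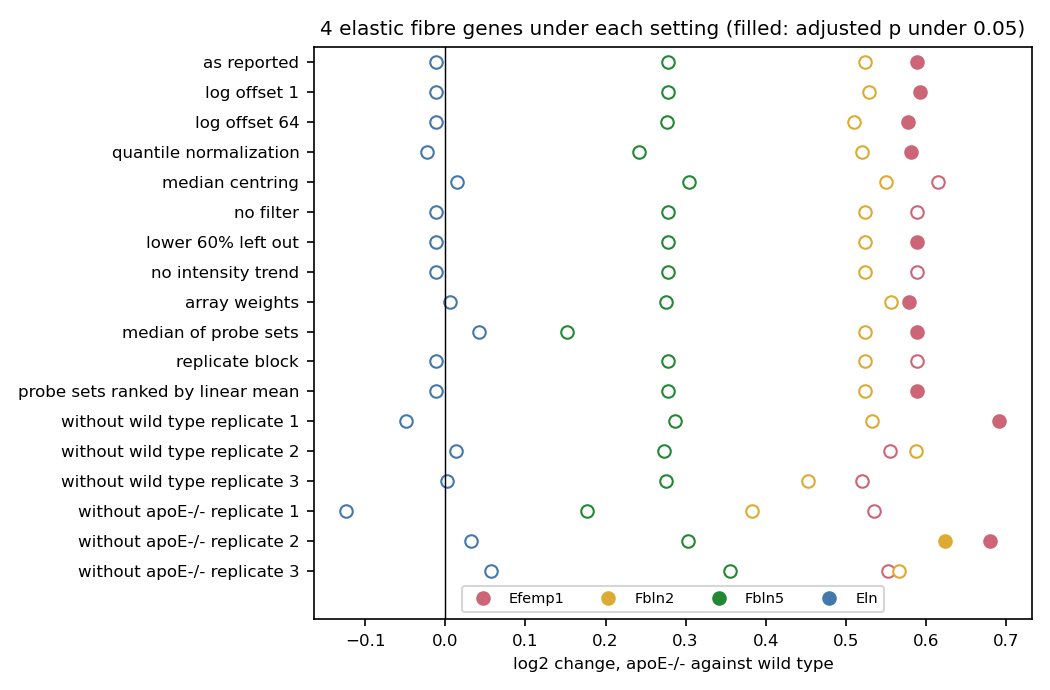
Log2 change (apoE-/- against wild type) of Efemp1, Fbln2, Fbln5 and Eln as reported and under each of 17 other settings; filled points had a limma adjusted p under 0.05. Efemp1 was called under 9 of the 17 settings with changes of 0.52 to 0.69, Fbln2 under 1, and Eln lay between -0.12 and 0.06 and was never called.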

How the data were processed

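The authors deposited 1 intensity per probe set and array on a linear scale (45101 probe sets, 6 arrays). Which software made them is not given in the sources used here. The mean after trimming 2% at each end was 500.002 on every array, so the intensities had been scaled before deposit. Symbols came from the platform annotation, which can be old, and were updated by gene identifier (GRCm38.p6; 34754 of 34958 probe sets with 1 symbol). Probe sets with several symbols (932, none naming a member) or without an entry (9160) named no gene.

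Intensities were transformed to log2(intensity + 16). The 64 control probe sets and the lower 40% of the rest by mean log2 over all arrays (18014) were left out, and each gene took its kept probe set of highest mean log2, giving 13031 genes from 27023 probe sets. All 8 named members passed, with 15 of 16 probe sets. Genotypes were compared across all genes, and again across all probe sets, with limma 3.58.1 in R 4.3.3 (lmFit, eBayes with an intensity trend, two-sided, Benjamini-Hochberg adjustment, called under 0.05); intervals are from these fits. With 3 arrays against 3 the smallest two-sided exact permutation p is 0.1, and none was computed. The number of arrays limits the precision.

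Members and lists were chosen with earlier results of these data known. Named are all members, Apoe, up to 4 called genes of each further elastic fibre list by size (or that with the smallest p), and the 3 genes closest in profile to Eln and to each called member; uncalled genes of the further lists, and single cell type markers, were named after their values were seen. Alternatives were other log offsets, normalizations, filters, variance and probe set settings, a replicate block and leaving out each array. Ranking probe sets by linear mean was tried first, and the log2 mean was taken with the results of both seen.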

Additional observations from a re-analysis of the deposited data

How the results depend on the processing

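With 3 arrays a group, calls near the threshold changed with the setting and with the arrays kept. The 1 called member, Efemp1, was lost (0 genes and 0 probe sets called) with median centring, no filter, no intensity trend and the replicate block. In the other settings that keep all arrays 1 member was called. Leaving out single arrays gave 0 to 2 members and 0 to 1 member probe sets. The further microfibril genes called were 3 with array weights (Ltbp2, Mfap2 and, lower, Thsd4) and 1 to 2 without single arrays. The elastin-degrading enzymes called, counted with Mmp12, were 2 to 5 without single arrays, against 4 in the reported setting. Over all genes 309 were called with no intensity trend, 301 with the replicate block and 153 to 686 without single arrays, against 473. Ranking probe sets by the mean of linear intensities, an alternative recorded after seeing the data, gave 477 calls over all genes and changed no call of a member or a further list (Efemp1 adjusted p = 0.037, Fbln2 0.087). No gene of the further lysyl oxidase list was called in any setting, but Loxl2, without a named probe set, was never tested. The cause of the lost calls was not tested.

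Signs near 0 also turned. The Eln change was 0.014 with median centring (gene and bright probe set), 0.0057 with array weights and 0.042 as the median of its probe sets, and -0.12 to 0.057 without single arrays; its dimmer probe set ran from -0.028 to 0.17. Loxl1 ran from -0.13 to 0.0088 and its dimmer probe set from -0.20 to 0.023, the dim Fbln1 probe set from -0.19 to 0.010, the dim Lox probe set from -0.19 to 0.19 and the dim Fbln5 probe set from -0.093 to 0.17, with -0.014 under array weights. Efemp1, Fbln2, Fbln5, Lox, Fbln1 and Mfap4 kept their sign as genes in every setting.

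Arrays with the same replicate number had deviations that correlated at r = -0.10, -0.17 and -0.06, and the other pairs across genotypes lay between -0.12 and 0.20. The deviations were centred on the mean of only 3 arrays a genotype, so these values cannot exclude a shared batch or pairing. With the replicate block the limma adjusted p of Efemp1 was 0.059.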
